A study of Mus musculus with 9 samples.

Results

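The genes described here are 9 markers of homeostatic microglia, the resident macrophages of the brain in their resting state: Tmem119, Cx3cr1, Siglech, Selplg, Olfml3, Sall1, Fcrls, Aif1 and Maf. The choice was by gene name, with no threshold on measured values. Each was read from the probe set that names no other gene. All 9 were measured, with 1 such probe set each, among 19938 genes on the array. Total RNA from mouse brain, given as cortex in the series' design text, was hybridised to 1 Affymetrix mouse gene array per animal, with 9 arrays in 3 groups of 3 biological replicates. The WT group held B6SJLF1/J wild type mice injected with phosphate-buffered saline (PBS). The APP-PBS group held 5xFAD mice injected with PBS, and the APP-amylin group held 5xFAD mice injected with human amylin, a peptide hormone of the pancreas. All mice were about 5 months old, and all had received an intraperitoneal injection each day for 10 weeks. 5xFAD mice carry human transgenes with familial Alzheimer mutations under the neuronal Thy1 promoter and form amyloid plaques. No wild-type mice with amylin were among the groups, and the injections were shared by all.

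Microglia depend on signals from the brain around them, among them transforming growth factor beta and ligands of the CSF1 receptor, to keep a gene programme that sets them apart from other macrophages. Around amyloid plaques they are known to multiply and to take on a plaque-associated state in which many genes of the resting programme are lowered per cell. In whole tissue the level of a microglial gene therefore depends on how many microglia are present and on how much of its RNA each holds. Fewer or more cells and less or more RNA per cell cannot be told apart in these data. By role the set holds surface receptors (Cx3cr1, which binds the neuronal chemokine fractalkine, and Siglech, a sialic acid-binding lectin), surface proteins (Tmem119, a transmembrane protein used to stain microglia, and Selplg, the ligand of P-selectin) and Fcrls, a scavenger receptor of the Fc receptor-like family. It also holds Olfml3, a secreted matrix protein, Aif1, which encodes the actin-bundling protein IBA1 of the common microglia stain, and the transcription factors Sall1 and Maf. Several have other sources: Maf is also made by cortical interneurons, Siglech by plasmacytoid dendritic cells, Selplg by blood leukocytes and Sall1 by neural progenitors.

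Promoter sequence was set out for 4 genes on which the pattern below turns: Cx3cr1, Siglech, Aif1 and Sall1. Levels of Cx3cr1 and Siglech ran most alike over the arrays. Sall1 rose with the others in 5xFAD mice but ran against them once group means were subtracted. The RefSeq promoter table (GRCm38.p6) held 6 of the 9 genes. The printed bases end just before the outermost annotated start of the gene and read 5′ to 3′ on its strand. Capitals mark a match to the interferon regulatory factor motif; all motifs were searched on both strands.
Cx3cr1 (chr9:120068297-120068546, minus strand): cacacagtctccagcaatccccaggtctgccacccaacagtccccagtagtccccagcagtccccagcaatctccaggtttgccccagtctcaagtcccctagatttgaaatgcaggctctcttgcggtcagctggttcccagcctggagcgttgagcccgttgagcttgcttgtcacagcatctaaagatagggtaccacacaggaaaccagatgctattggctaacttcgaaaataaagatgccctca
Siglech (chr7:55767934-55768153, plus strand): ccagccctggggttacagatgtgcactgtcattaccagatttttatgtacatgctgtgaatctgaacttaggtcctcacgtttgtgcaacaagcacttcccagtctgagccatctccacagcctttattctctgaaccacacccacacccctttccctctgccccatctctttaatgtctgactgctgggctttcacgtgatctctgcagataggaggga
Aif1 (chr17:35176084-35176302, minus strand): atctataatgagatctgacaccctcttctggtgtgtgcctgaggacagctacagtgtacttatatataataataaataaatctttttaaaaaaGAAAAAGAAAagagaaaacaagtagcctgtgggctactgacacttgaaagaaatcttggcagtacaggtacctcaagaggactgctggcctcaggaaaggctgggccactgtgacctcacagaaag
Sall1 (chr8:89044163-89044412, minus strand): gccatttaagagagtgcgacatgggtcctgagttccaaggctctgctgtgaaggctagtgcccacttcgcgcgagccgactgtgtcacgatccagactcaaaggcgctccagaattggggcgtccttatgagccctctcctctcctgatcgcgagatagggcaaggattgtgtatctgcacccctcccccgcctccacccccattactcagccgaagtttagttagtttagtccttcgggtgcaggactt
The motifs were GAGGAA, the core of the site of PU.1 (the macrophage factor encoded by Spi1), its longer form GAGGAAGT, TGCTGA, the core of the MAF recognition element, and the interferon regulatory factor motif, a pair of GAAA runs with any 2 bases between them. The longer PU.1 form contains the core. The search covered the 250 bases before the start in the promoter table, which can lie inside the annotated gene. There GAGGAA lay in 2 of the 6 genes (Fcrls and Aif1) against 23.1% of 27025 promoters, and GAGGAAGT in 0 of 6 against 2.42%. TGCTGA lay in 1 (Fcrls) against 15.8%, and the interferon regulatory factor motif in 1 (Aif1) against 3.05%. The match of Aif1 to GAGGAA lies 7 to 2 bases before its table start, inside the annotated gene and outside the stretch printed here. Of the 250 bases searched for Fcrls, 241 lie inside the annotated gene. Its matches to GAGGAA (144 to 139 bases before the table start) and TGCTGA (47 to 42) are both among them. Tmem119 and Selplg are neighbours on chromosome 5 with 0 protein-coding genes between them.

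In vehicle-treated 5xFAD mice, 8 of the 9 genes rose against wild type, and none fell. Olfml3 and Fcrls rose most, by 2.68-fold and 2.65-fold, and Siglech followed with 2.19-fold. Maf alone did not pass. Over all genes tested, 3.66% were called higher and 4.92% lower in this comparison (limma, Benjamini-Hochberg adjusted p under 0.05 over all genes). The median log2 difference of the 9 was 0.89, against -0.01 over all genes. All values that follow are RMA log2 intensities, on which a difference of 1 is a doubling. The limma p-values set each difference against 1 spread per gene, pooled over the mice of all 3 groups. Arrays of the group not compared therefore bear on them too.

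Among the surface receptors, Cx3cr1 read 7.50, 7.64 and 7.57 in the WT mice (replicates 1 to 3), 8.18, 8.66 and 8.76 in the APP-PBS mice, and 8.39, 8.54 and 8.18 in the APP-amylin mice. Every 5xFAD array stood above every WT array, with APP-PBS replicate 1 and APP-amylin replicate 3 lowest among them. Its log2 difference between APP-PBS and WT was 0.96 ± 0.14 (SE; 1.95-fold, limma adjusted p = 0.00377). Siglech read 6.71, 6.83 and 6.74 in WT, 7.54, 8.05 and 8.09 in APP-PBS, and 7.52, 7.86 and 7.46 in APP-amylin. It kept nearly the same order of arrays as Cx3cr1, without overlap between genotypes. Its difference was 1.13 ± 0.15 (adjusted p = 0.00183).

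Fcrls had the widest spread of the set. It read 7.50, 7.39 and 7.31 in WT, 8.62, 9.36 and 8.45 in APP-PBS, and 8.22, 8.67 and 8.66 in APP-amylin, so APP-PBS replicate 2 stood apart from the other 2 vehicle arrays. Its difference was 1.41 ± 0.21 (adjusted p = 0.0039), and it was 1.13 without APP-PBS replicate 2. Fcrls has close paralogs in the Fc receptor-like family, and cross-hybridisation was not tested.

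Tmem119, the marker used to tell microglia from invading macrophages, read 7.25, 7.28 and 7.38 in WT, 7.67, 7.92 and 7.67 in APP-PBS, and 7.59, 7.69 and 7.65 in APP-amylin. The genotypes did not overlap, but the gap was small: the difference was 0.45 ± 0.07 (1.37-fold, adjusted p = 0.00621). Its neighbour Selplg read 7.80, 7.77 and 7.87 in WT, 8.42, 8.999 and 8.62 in APP-PBS, and 8.33, 8.53 and 8.20 in APP-amylin. Here again APP-PBS replicate 2 was the highest array. Selplg rose by 0.87 ± 0.13 (1.83-fold, adjusted p = 0.00439).

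The secreted protein gene Olfml3 read 7.91, 7.81 and 7.76 in WT, 9.11, 9.58 and 9.06 in APP-PBS, and 8.60, 9.05 and 8.67 in APP-amylin. It was the only member in which the 3 groups formed 3 separate ranges, WT lowest and APP-PBS highest, although APP-PBS replicate 3 and APP-amylin replicate 2 differed by under 0.01. Its difference between APP-PBS and WT was 1.42 ± 0.15 (adjusted p = 0.000692), rank 58 by size among the 19938 genes. Aif1 read 5.21, 5.33 and 5.17 in WT, 5.98, 6.11 and 6.29 in APP-PBS, and 5.78, 6.05 and 5.78 in APP-amylin. All 5xFAD arrays lay above WT. It rose by 0.89 ± 0.10 (1.85-fold, adjusted p = 0.000753).

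The pair of transcription factors differed from the rest. Sall1, which holds microglia in their resting identity, read 6.97, 6.82 and 6.89 in WT, 7.56, 7.22 and 7.48 in APP-PBS, and 7.54, 7.24 and 7.61 in APP-amylin. It was higher in all 5xFAD arrays than in WT, yet replicate 2 was its lowest array in both 5xFAD groups, where most other members were high. Its difference was 0.53 ± 0.11 (1.44-fold, adjusted p = 0.0182). That call was lost without WT replicate 1 (adjusted p = 0.0503), 2 (0.0681) or 3 (0.0634), without APP-PBS replicate 1 (0.0615) or 3 (0.0714), and with the olfactory bulb list as a term (difference 0.29, adjusted p = 0.0672). Maf read 7.55, 7.50 and 7.58 in WT, 7.55, 7.59 and 7.66 in APP-PBS, and 7.63, 7.55 and 7.39 in APP-amylin. Its groups overlapped throughout: the difference between APP-PBS and WT was 0.06 ± 0.07 (adjusted p = 0.726), with a 95% interval of -0.09 to 0.21.

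**Figure D1:**
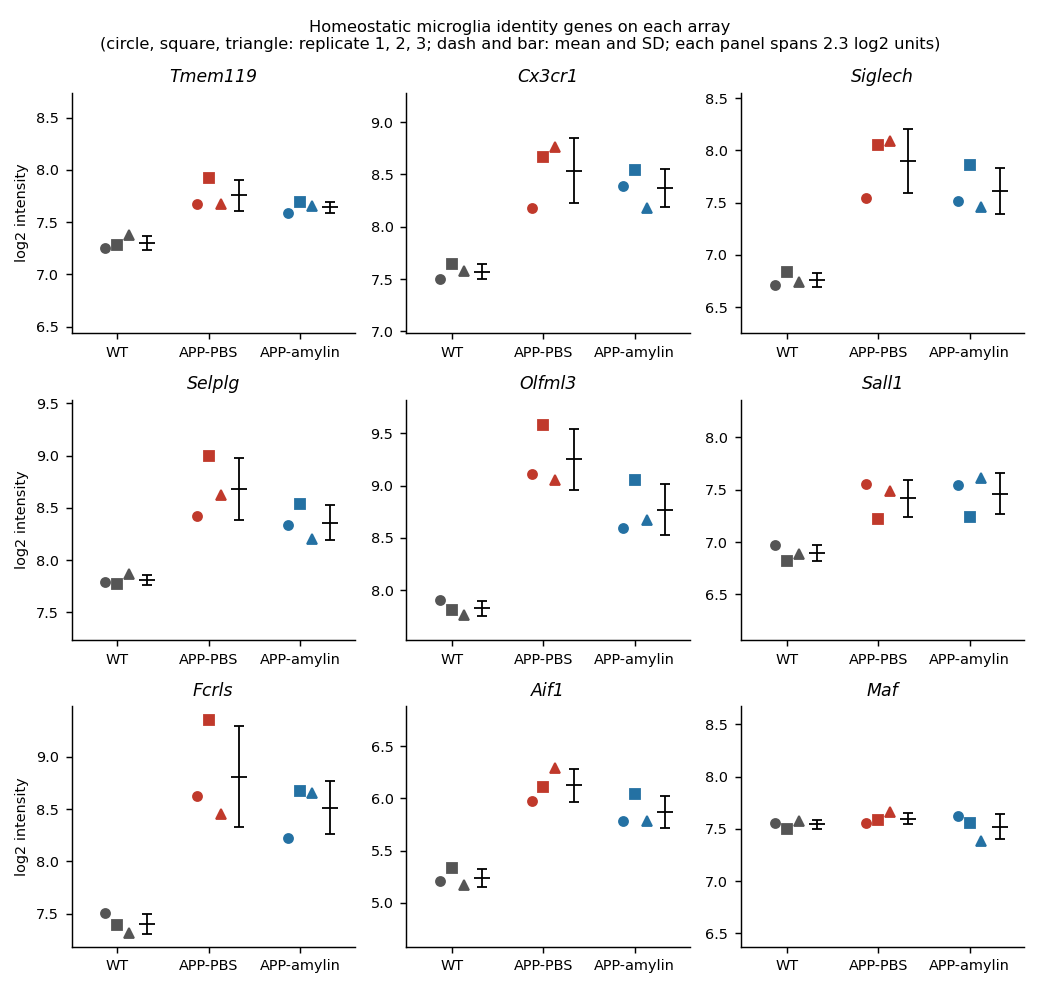
Log2 intensity of the 9 genes (y axis) on each of the 9 arrays, by group (x axis); circles, squares and triangles are replicates 1, 2 and 3, and the dash with bars is the group's mean and SD. All 5xFAD arrays lie above all WT arrays for 8 genes, while Maf stays between 7.39 and 7.66 in all groups, and in both 5xFAD groups the squares are lowest for Sall1 and highest for Olfml3.

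In counts, the groups APP-PBS and WT did not overlap in 8 of 9 members, all higher, against 11.2% of all genes higher without overlap. Leaving out any of the 9 arrays kept 7 or 8 members called higher. Between APP-PBS and WT, only Sall1 lost its call when an array was left out.

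Other genes of resting microglia did not all move with these 9. In APP-PBS against WT, 10 of 20 measured genes from a list of 21 passed as higher and 0 as lower, and the median difference was 0.27. By mean alone, 11 of the 20 were higher and 9 lower, the lowest at -0.37. The genes named next are those with the smallest p. The purine-family receptor Gpr34 rose by 1.55 ± 0.16, the prostaglandin D synthase Hpgds by 1.24 ± 0.14, the protein S gene Pros1, whose product is a ligand of TAM receptors, by 1.00 ± 0.12, and the purine receptor P2ry12 by 0.94 ± 0.11 (limma adjusted p = 0.000687 to 0.00135). Among 11 measured transcription factors of microglia, 5 rose and 0 fell, with a median of 0.14. Those 5 were the interferon regulatory factors Irf8 (0.80 ± 0.10) and Irf5 (0.47 ± 0.10), Spi1 (0.68 ± 0.12), Runx1 (0.44 ± 0.08) and Ikzf1 (0.29 ± 0.07). Ikzf1 is named after its values were seen. Of 25 genes of plaque-associated microglia 15 rose and 0 fell, and their median difference was 0.98. Lysozyme 2 (Lyz2) rose by 2.95 ± 0.17, the lysosomal glycoprotein gene Cd68 by 2.47 ± 0.15, the growth factor Igf1 by 1.00 ± 0.06 and the protease inhibitor Cst7 by 4.92 ± 0.30. Median differences of lists are set side by side here and were not tested against each other.

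Markers of other cells that share these genes gave the following values on the same arrays. Of 12 genes of border macrophages 0 passed in either direction. Their mean log2 level was 4.87 to 4.88 in WT and 4.91 to 5.00 in APP-PBS, and the mannose receptor Mrc1, which they share with some activated microglia, came nearest (0.38 ± 0.10, adjusted p = 0.0502). Of 13 genes of blood leukocytes 1 rose, Cd4 (0.90 ± 0.07), a co-receptor of T cells that mouse macrophages can also make, and 1 fell, the integrin gene Itga4, by 0.59. Their mean level was 4.20 to 4.24 in WT and 4.19 to 4.31 in APP-PBS. None of 4 plasmacytoid dendritic cell genes, 9 interneuron genes or 8 astrocyte genes passed. Of 14 genes of vessels and fibroblasts 1 fell, decorin (Dcn), by 1.03. Intensities have no true zero, so no marker could be called absent.

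Marker genes of brain regions also differed with genotype. All 11 measured striatal genes rose in APP-PBS against WT (median 1.42), while 8 of 9 hippocampal and 8 of 10 thalamic genes fell (medians -1.20 and -0.79), as did 3 of 7 genes of cortical neurons. The mean striatal level was 7.94 to 8.19 in WT, 9.40 to 9.63 in APP-PBS and 9.41 to 9.53 in APP-amylin, so genotype and the levels of these markers cannot be told apart here. The olfactory bulb list differed both with genotype and within groups. It lay higher on every 5xFAD array than on any WT array, with 0 of 9 genes past the threshold in APP-PBS and 2 higher in APP-amylin against WT. Its mean was 5.49 to 5.79 in WT, 7.31, 5.83 and 6.37 in APP-PBS replicates 1 to 3, and 7.04, 6.12 and 7.19 in APP-amylin replicates 1 to 3. With that mean as a term, 7 of 9 members remained called higher between APP-PBS and WT, with differences from 0.56 for Tmem119 to 1.70 for Olfml3. Array medians ran from 5.71 to 5.79. The human transgenes have no probe set of their own to check the genotype labels, and mouse App did not pass (-0.14, adjusted p = 0.139). Sex is not given in the labels. Xist, the transcript of the inactive X chromosome, averaged 10.0 in WT, 10.2 in APP-PBS and 10.3 in APP-amylin, the Y-linked gene Uty 2.80, 2.83 and 2.78, and neither passed.

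Within groups, the 9 genes fell into patterns that followed these array differences. After each group's mean was subtracted, Cx3cr1 and Siglech correlated at 0.96 with each other over the 9 arrays, and Aif1 with Siglech at 0.89. These 3 also ran closest to the pan-microglia reference list described below (0.91, 0.98 and 0.86). A second set held Fcrls and Olfml3 (0.87), Olfml3 and Selplg (0.83), and Tmem119 and Selplg (0.83). Replicate 2 was the highest APP-PBS array in all 4 genes. The sets were not separate: Selplg also stood at 0.76 with Siglech and 0.71 with Cx3cr1, above its 0.66 with Fcrls. Fcrls and Aif1 shared almost no within-group pattern (0.02). Sall1 correlated negatively with every other member, from -0.88 with Selplg to -0.19 with Maf. The points share their arrays, so these values only describe them.

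The direction of Sall1 matched that of the olfactory bulb list. Over the 9 arrays, with group means subtracted, Sall1 correlated with the mean of that list at 0.92, while Siglech stood at -0.94, Selplg at -0.92 and Cx3cr1 at -0.86. The link was not particular to the olfactory bulb. With the striatum list Sall1 stood at 0.79, Siglech at -0.67, Selplg at -0.63 and Cx3cr1 at -0.59. With the pan-microglia list Sall1 stood at -0.705. APP-PBS replicate 2 and APP-amylin replicate 2 had the lowest olfactory bulb means of their groups and the lowest Sall1 levels. APP-PBS replicate 1, with the highest olfactory bulb mean, had the lowest vehicle levels of 6 of the 9 genes and the highest of Sall1. Whether RNA of the olfactory bulb adds to the level of Sall1 was not tested. Under the term named above, the difference of Sall1 between APP-PBS and WT was 0.29 and its call was lost. Over all genes 1063 were called under that term, against 729 higher and 981 lower without it. The list lay higher on every 5xFAD array, so the term and genotype cannot be fully told apart.

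**Figure D2:**
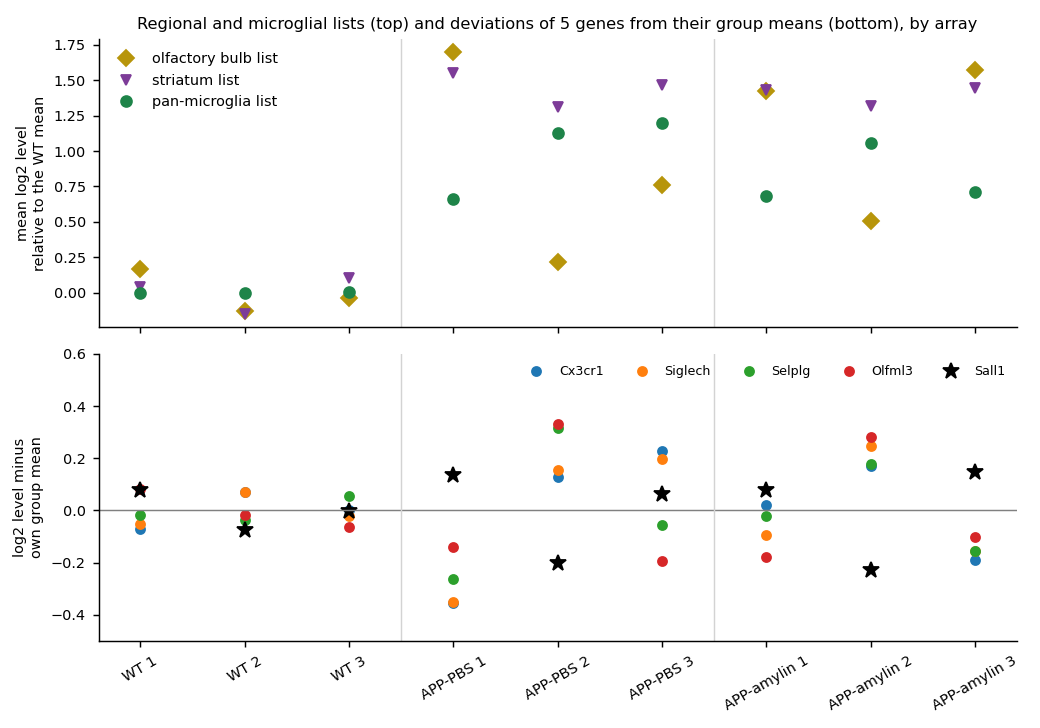
Top: mean log2 level of the olfactory bulb, striatum and pan-microglia lists relative to the WT mean (y axis) on each array (x axis). Bottom: log2 level minus the mean of the array's own group for Cx3cr1, Siglech, Selplg, Olfml3 and Sall1 (star); on replicate 2 of both 5xFAD groups Sall1 lies below 0 and the other 4 above it.

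The question whether the resting programme fell or held relative to microglia was approached by setting each gene against a reference list of 19 measured genes that microglia and other macrophages use in both states. Of these, 16 rose and 0 fell between WT and APP-PBS, among the former the tetraspanin Cd53 (1.71 ± 0.17), the leukocyte phosphatase Ptprc (1.21 ± 0.14), the lysosomal Laptm5 (1.32 ± 0.15) and Irf8. The list's mean rose from 6.69 ± 0.004 (SD, n = 3) to 7.69 ± 0.29 (SD, n = 3) in APP-PBS and was 7.50 ± 0.21 (SD, n = 3) in APP-amylin, a shift of 1.00 between APP-PBS and WT. For each gene the list's mean was subtracted on the same array. Probe sets differ in how much signal a change in RNA gives, and the reference genes may themselves change per cell, so the result is a relative value on these arrays and no level per cell.

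Relative to that reference, the 9 genes spread around 0 rather than moving together. Between APP-PBS and WT, Olfml3 was 0.43 and Fcrls 0.41 higher than the reference, though APP-PBS replicate 3 lay within the WT range for Olfml3 and below it for Fcrls. The value of Fcrls was 0.20 without APP-PBS replicate 2 and 0.69 without replicate 3. Siglech was 0.14 higher, with relative levels of 0.21 ± 0.02 (SD, n = 3) against 0.07 ± 0.07 (SD, n = 3), and without overlap. Cx3cr1 moved as the reference did, with a difference of -0.03 and overlapping groups. Aif1 and Selplg stood at -0.11 and -0.13, again with overlap.

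Tmem119, Sall1 and Maf lagged behind the mean of the reference, though not behind every gene in it. Tmem119 went from 0.61 ± 0.06 (SD, n = 3) in WT to 0.07 ± 0.27 (SD, n = 3) in APP-PBS, a relative difference of -0.55 without overlap. Maf went from 0.85 ± 0.04 (SD, n = 3) to -0.09 ± 0.25 (SD, n = 3), a difference of -0.94 without overlap. The level of Maf itself differed by only 0.06, so this value is nearly the shift of the reference. Sall1 stood at -0.47, but APP-PBS replicate 1 lay within the WT range, and the value was -0.70 without it and -0.30 without replicate 2. In all, 1 member was higher and 2 were lower than the reference without overlap. Over 19919 genes outside the reference, 0.291% were higher and 98.2% lower in that sense, since most genes did not rise. With 3 mice a group the exact two-sided permutation test cannot go below p = 0.1, which Tmem119, Siglech and Maf reached with this reference.

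The choice of reference moved these values. Over 5 references (the list's mean or median, the list without the 3 C1q genes, Csf1r alone, and 4 transcription factors), the relative difference of Tmem119 ran from -0.55 to -0.10 and that of Maf from -0.94 to -0.50. Olfml3 ran from 0.43 to 0.87, Fcrls from 0.41 to 0.86 and Siglech from 0.14 to 0.58. Sall1 ran from -0.47 to -0.02. Cx3cr1 (-0.03 to 0.41), Aif1 (-0.11 to 0.33) and Selplg (-0.13 to 0.32) changed sign. The highest values came with the 4 transcription factors (Spi1, Irf8, Runx1 and Ikzf1), whose mean rose by only 0.55. All 4 passed as higher between APP-PBS and WT, with WT means from 5.44 to 5.92. Runx1 and Ikzf1 are outside the reference list, and Irf5, which also passed, was not used. With these 4 as reference, 6 members (Cx3cr1, Siglech, Selplg, Olfml3, Fcrls and Aif1) were higher than WT without overlap, against 0.728% of genes outside the list. Maf alone was lower, against 93.6%. Tmem119 then overlapped with WT (exact permutation p = 0.6). Maf was the member whose groups did not overlap under any of the 5 references.

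**Figure D3:**
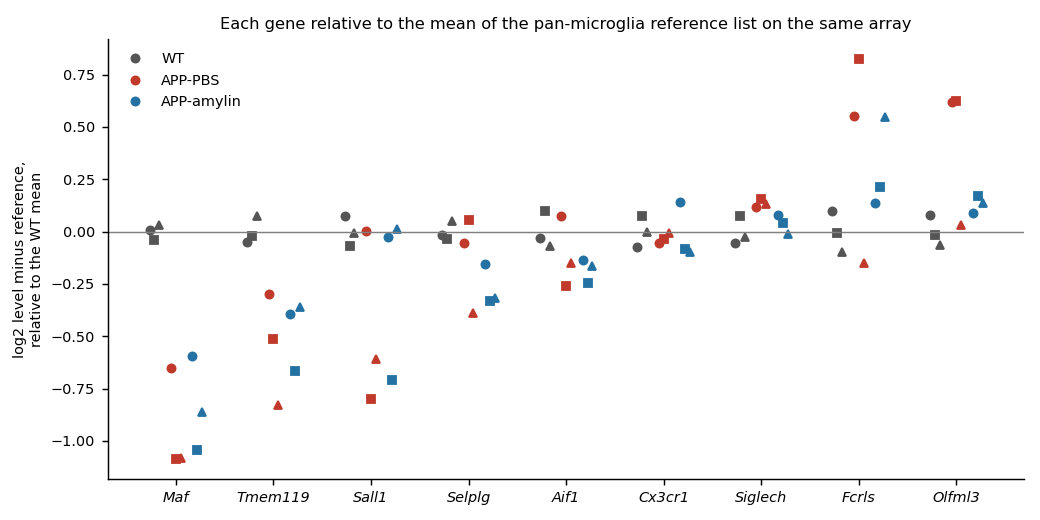
Log2 level of each gene minus the mean of the pan-microglia reference list on the same array, relative to the WT mean (y axis), for the 9 genes (x axis) in WT, APP-PBS and APP-amylin; circles, squares and triangles are replicates 1, 2 and 3. All 5xFAD points of Maf and Tmem119 lie below WT, those of Cx3cr1 lie around 0, and Olfml3 and Fcrls reach highest.

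Amylin-treated 5xFAD mice also stood above wild type in most of the set. Of the 9 members 8 rose, 0 fell and Maf did not pass (-0.02 ± 0.07, adjusted p = 0.913), against 2.35% of all genes called higher and 2.86% called lower. The groups of those 8 did not overlap, against 10.8% of all genes higher without overlap. Fcrls rose by 1.11 ± 0.21 (2.16-fold), Olfml3 by 0.95 ± 0.15 (1.93-fold) and Siglech by 0.85 ± 0.15 (1.80-fold). Cx3cr1 rose by 0.80 ± 0.14, Aif1 by 0.63 ± 0.10, Sall1 by 0.57 ± 0.11, Selplg by 0.54 ± 0.13 and Tmem119 by 0.34 ± 0.07 (limma adjusted p = 0.00636 to 0.0487 over the 8).

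These calls were lost more often than those of the vehicle group when 1 array was left out. The differences moved less than the calls: that of Selplg ran from 0.46 to 0.62, and was unchanged without APP-PBS replicate 3. Calls over all genes also became fewer: 447 without WT replicate 1, against 468 higher and 571 lower with all arrays. Without WT replicate 1 only Olfml3 and Aif1 were called. Without WT replicate 2 or 3, or APP-amylin replicate 3, 4 members were called, and without APP-amylin replicate 2, 5 were. Selplg lost its call without any of 7 arrays (adjusted p = 0.0708 to 0.161), that is all but APP-PBS replicates 1 and 2. Tmem119 (0.0561 to 0.127) and Fcrls (0.0529 to 0.07) lost theirs without any WT array or APP-amylin replicate 2 or 3. Sall1 lost its call without any WT array or APP-amylin replicate 1 or 3 (0.0569 to 0.0731) and with the olfactory bulb term (0.217). Cx3cr1 (0.0677) and Siglech (0.0587) lost theirs without WT replicate 1. With a minimum of 1.5-fold, 5 were called. Relative to the reference list, Olfml3 and Fcrls were higher than WT without overlap (0.13 and 0.30), and Tmem119 (-0.47), Selplg (-0.27), Aif1 (-0.18) and Maf (-0.83) were lower. The background of genes outside the reference was 0.276% higher and 98% lower. These values depended on the reference. With the list's median, Olfml3 (0.02) and Fcrls (0.19) overlapped with WT. Olfml3 and Aif1 both overlapped without the C1q genes (0.22 and -0.09) and with Csf1r alone (0.16 and -0.15). With the 4 transcription factors Selplg and Aif1 changed sign and Tmem119 (-0.08) overlapped, while Maf was lower without overlap under all 5 references.

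Between amylin and vehicle within 5xFAD mice, no member passed in either direction, against 0.00502% of all genes called higher and 0% called lower. The means of 8 of 9 genes were lower under amylin, against 49.6% of all genes. At an unadjusted p under 0.05, 3 members were lower and 0 higher, against 3.18% and 3.72% of all genes. These were Olfml3 (-0.48 ± 0.15, adjusted p = 0.664), Selplg (-0.33 ± 0.13, adjusted p = 0.712) and Aif1 (-0.25 ± 0.10, adjusted p = 0.696). Only Olfml3 had groups without overlap, against 3.81% of all genes lower and 5.49% higher without overlap. The median difference of the 9 was -0.25. In the lists of other microglial genes 0 passed: 15 of 20 other resting-state genes were lower in mean (median -0.07), as were 8 of 11 transcription factors (median -0.01) and 23 of 25 plaque-associated genes (median -0.30). This comparison shares its vehicle arrays with the comparison of APP-PBS and WT.

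The 95% intervals of the limma fit hold for each gene alone. Unlike the adjusted p, they make no allowance for the number of genes tested. That of the amylin difference excluded 0 for Olfml3 (-0.82 to -0.14), Selplg (-0.62 to -0.03) and Aif1 (-0.47 to -0.04), none of which passed after adjustment. The interval held 0 for Fcrls (-0.77 to 0.18), Siglech (-0.62 to 0.05) and Cx3cr1 (-0.49 to 0.16). It was narrower for Tmem119 (-0.28 to 0.05) and Maf (-0.23 to 0.07). Sall1 alone had a higher mean under amylin (0.04, interval -0.21 to 0.29), and turned to -0.058 without APP-PBS replicate 2. Without that array, Fcrls went from -0.29 to -0.02, Selplg from -0.33 to -0.17, Tmem119 from -0.11 to -0.03, Cx3cr1 from -0.16 to -0.10 and Olfml3 from -0.48 to -0.31. Other arrays moved values away from 0: without APP-PBS replicate 1 Cx3cr1 was at -0.34 and Siglech at -0.46, and without replicate 3 Fcrls was at -0.47. Cx3cr1 came to -0.05 without APP-PBS replicate 3. Over the 9 arrays left out in turn, Olfml3 ran from -0.62 to -0.31, Aif1 from -0.34 to -0.17, Selplg from -0.46 to -0.17, Siglech from -0.46 to -0.18 and Maf from -0.13 to -0.01, and none was called. The olfactory bulb list, whose median was 0.30 higher under amylin with 0 of 9 genes past the threshold, bore on these values: with its mean as a term Cx3cr1 went from -0.16 to -0.07 and Siglech from -0.28 to -0.18. Within the APP-amylin group, replicate 2, which had the least olfactory bulb signal, was the highest array for 7 of the 9 genes.

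The reference list moved too, by -0.18 between APP-PBS and APP-amylin, with 0 of its 19 genes past the threshold and 18 lower in mean, although the median level of the list on each array was 0.03 higher on average. Relative to it the members' differences ran from -0.29 for Olfml3 to 0.23 for Sall1, with a median of -0.07. Siglech alone did not overlap (-0.10, from 0.21 ± 0.02 to 0.11 ± 0.05, SD, n = 3; exact permutation p = 0.1), against 0.11% of genes outside the reference that were lower and 0.577% that were higher in that sense. With the list's median as reference, 4 members were lower without overlap (Olfml3 -0.51, Selplg -0.35, Siglech -0.31 and Cx3cr1 -0.19), against 0.944% of genes outside the list. With the other 3 references 0 members separated, and Siglech overlapped (exact permutation p = 0.2 to 0.3).

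**Figure D4:**
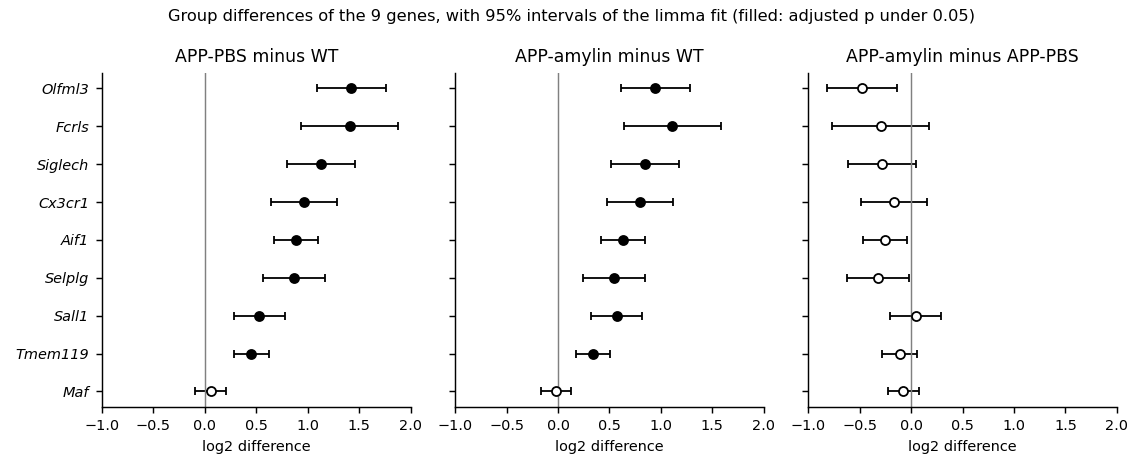
Log2 differences (x axis) of the 9 genes (y axis, ordered by the difference between APP-PBS and WT) in the 3 comparisons. Bars are 95% intervals of the limma fit, not adjusted for the number of genes, and filled points passed an adjusted p under 0.05. The 8 filled points in each comparison with WT lie between 0.34 and 1.42, and all points between amylin and vehicle are open, from -0.48 to 0.04.

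The genes whose levels ran most like each member over the 9 arrays were named by Pearson correlation, which here mostly carries the gap between genotypes. The nearest to Cx3cr1 were Pik3cg, a kinase subunit of leukocytes (r = 0.99), and Cd180, a toll-like receptor homologue of B cells and macrophages (0.99). Siglech ran with Hexa, a lysosomal hexosaminidase subunit (0.99), and with the leukocyte phosphatase Ptpn6 (0.99), and Aif1 with Ptpn6 and Cd180 (0.98 each). Selplg ran with the lysosomal enzyme gene Gusb and the galectin Lgals9 (0.99 each), and Olfml3 with Tmem176b (0.99) and the microglial adaptor Tyrobp (0.98). Fcrls ran with Fam111a and Tmem176b (0.98 and 0.97), and Tmem119 with Ccdc47 and Pros1 (0.98 each). The neighbours of Sall1 were Map3k1, a kinase of stress signalling, and Casp2, a caspase (0.98 each), and those of Maf were Chst14 (0.98) and Lrrk1 (0.95). Between APP-PBS and WT these 4 did not pass (limma adjusted p = 0.0557, 0.078, 0.75 and 0.403), nor did Ccdc47 (0.0757).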

How the data were processed

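The members and lists were chosen with earlier results of these data known. The authors deposited log2 intensities for 35556 probe sets on every array. These were made, according to the submitters' processing notes, with RMA in the R package oligo; versions and genome build are not given in the sources used here. RMA corrects background, brings arrays to common quantiles, which hides any shift of all genes, and summarises probes. Probe sets naming 1 gene (21789) were kept, and the 1 with the highest mean stood for a gene, which left 19938 genes. RefSeq (GRCm38.p6) was used for names and promoters.

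The 3 comparisons came from 1 fit of all 9 arrays in limma 3.58.1 (R 4.3.3), which had 6 residual degrees of freedom and added 3.53 from the prior. Calls were made at a Benjamini-Hochberg adjusted p under 0.05 over all genes. The median SE of a difference was 0.07; the number of arrays limits precision. In simulated data for APP-PBS against WT with 19938 genes, 26% of 50 genes changed by 0.25 log2, 82% of those by 0.5, 98% by 1 and 100% by 2 were recovered, with 11 false calls. The simulation drew independent normal values with 1 SD per gene in all groups and changed genes picked at random. On the arrays the spread differed between groups (Fcrls SD 0.10 in WT and 0.48 in APP-PBS), so these rates need not hold for the members. Values relative to the reference were compared by exact two-sided permutation over samples. Named beside the members were the 4 genes of each list with the smallest p between APP-PBS and WT and the 2 genes nearest to each member; the text names part of these, picked after values were seen. Alternatives covered normalization, dim genes, prior, samples, array weights, replicate block, probe sets, olfactory bulb signal, the reference list and leaving out each array.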

Additional observations from a re-analysis of the deposited data

How the results depend on the processing

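Directions of the 8 members called between APP-PBS and WT held under the 10 other settings of the fit and with each array left out. Of 170 member values recomputed for that comparison, 6 lost a call, all of Sall1. Of 170 for APP-amylin against WT, 25 did. The count of members called higher ran from 7 to 8 without an array for APP-PBS against WT and from 2 to 8 for APP-amylin against WT. The latter was 5 with a minimum of 1.5-fold. The count between amylin and vehicle stayed at 0, also at an adjusted p under 0.1. Signs turned only in values that had not passed. The Sall1 difference between amylin and vehicle (0.04) became -0.076 when arrays were weighted and -0.031 under the olfactory bulb term, and ran from -0.058 to 0.16 without an array. That of Maf between APP-amylin and WT (-0.02) became 0.029 with the olfactory bulb term and ran from -0.073 to 0.047 without an array. The causes were not tested. The labels do not say that replicate numbers pair the samples. Deviations of same-numbered arrays correlated from -0.06 to 0.18, over 0.1 in 4 of 9 pairs, and 5 of 9 arrays correlated best with their own number. Some arrays would do so without any pairing. The count was not tested against that, so pairing was not established. With the replicate block, 8, 0 and 8 members were called higher in the comparisons of APP-PBS with WT, amylin with vehicle and amylin with WT. Aif1 was not tested with the lowest 50% of genes left out, since it lies among them. Of 405 relative values, 36 moved by more than the replicate SD. The 405 include values without an array of the group not compared, which cannot move. Signs of some relative values also turned, most often for Cx3cr1. Its sign turned in 4 of 15 settings for APP-PBS against WT, 4 for amylin against vehicle and 6 for APP-amylin against WT. The reference of Csf1r alone was chosen after seeing the data, and another intended reference was not run.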
